A study of Rattus norvegicus with 150 samples.

Results

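The 150 genes described here were lower in rat calf muscle at 12 months than at 1 month after a metal implant, in each of 4 metals. For every gene the level was taken as log2(CPM + 1), where CPM is its count per 1000000 counts of the library. The mean level at 1 month was subtracted from the mean level at 12 months separately for Ta, Co, P and DU, and the highest of the 4 differences was the score of the gene. Of 32545 genes in the count table, 10537 had a mean of 2 CPM or more in the Ta libraries at 1 month and were open to the choice. The 150 with the lowest scores were taken from 1636 that were lower at 12 months in all 4 metals. The genes were thus chosen by their 12 against 1 month differences, which are given as a description, without a test. The libraries at 3 and 6 months, and every library of Ni, were not used in the choice, and the tests below rest on them.

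The series holds 150 RNA-seq libraries of gastrocnemius muscle from male Sprague-Dawley rats, in 19 groups of metal and time. Every rat, controls included, had surgery and carried 2 pellets in each hind limb, 4 in all, each a cylinder 1 mm wide and 2 mm long. Tantalum (Ta) is the sham metal of the study, and the other groups are nickel (Ni), cobalt (Co), depleted uranium (DU) and a group labelled P, taken to be the lead that the design text lists. Ta, Co, P and DU were sampled at 1, 3, 6 and 12 months and Ni at 1, 3 and 6 months, with 8 libraries in 17 groups and 7 in the other groups, Ta at 1 month and Co at 6 months. The rats were about 30 days old when bought and were kept for at least 2 weeks before surgery. Each time point was a separate cohort, so the time since implant, the age of the rats and the cohort cannot be told apart. The labels tie no library to a lane or batch.

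As background, the gastrocnemius is a large fast-contracting calf muscle built of multinucleated fibres, with blood vessels, nerves, connective tissue cells and immune cells between them. A rat of this age is still growing, and its muscle goes on adding fibre mass and matrix for months. An implanted solid also sets off wound repair and a foreign-body response, which is strongest early and settles into a capsule of connective tissue around the object. In whole muscle, fewer cells of a type and less RNA per cell cannot be told apart. The table gives Ensembl gene identifiers without names, and none of them matched the reference tables used here. The genes are therefore given by identifier, at most 2 in each direction per comparison, and their roles, lists of pathway genes and cell type markers could not be applied. Because gene lengths were not used, a CPM value compares libraries for 1 gene and not genes with each other.

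Library totals ran from 12674115 to 21921859 counts, with a median of 15778710, and no pair of libraries in a group agreed within sampling noise. In 8 libraries the median correlation with the rest of their group was under 0.95. They are Co replicates 1 and 3 at 1 month, Co replicates 2, 6 and 8 at 3 months, Co replicate 1 at 6 months, DU replicate 2 at 3 months and DU replicate 6 at 12 months. In them the 10 genes with the highest counts held 15.5% to 47.7% of the library, and in the 142 other libraries 20.2% to 42.9%. The part of these libraries in the results was not tested beyond the values given without them.

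The 150 genes spanned a wide range of abundance. Their mean level in the Ta libraries at 1 month ran from 2.02 to 4546 CPM with a median of 10.6. Of the 150, 32 lay below 5 CPM, 38 between 5 and 10, 70 between 10 and 100, 9 between 100 and 1000, and 1 above that. The 9 genes between 100 and 1000 CPM had a median score of -1.14. It was -0.61 in each of the 2 lowest classes and -0.66 in the class from 10 to 100 CPM. The 1 gene above 1000 CPM scored -0.51. The 1 added to CPM makes differences smaller at low CPM, so scores do not compare evenly between the classes. A count of 0 in some library was seen for 25 of the genes, in at most 2 libraries for any of them. Scores ran from -2.31 down the ranking to -0.4969 and -0.4952 for the last genes inside, and the next genes outside scored -0.4944 and -0.4939, so the limit falls in a continuous series.

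The size of the difference varied by metal. The median difference between 12 and 1 months over the 150 genes was -1.02 in Ta, -0.89 in Co, -0.85 in P and -0.76 in DU on the log2(CPM + 1) scale. Over all 10537 open genes the same medians were -0.07, -0.08, -0.04 and 0.19. A fall of 1 or more on this scale, which is 2-fold in CPM + 1, was found for 78 of the genes in Ta, 61 in Co, 45 in P and 40 in DU. It was found for 15 in all 4 metals. The added 1 makes differences smaller for genes of low CPM, so these are not counts of 2-fold falls in CPM itself. Among all open genes 1.87% were that much lower in Ta, 4.33% in Co, 0.674% in P and 0.759% in DU. Larger shares among the members follow from the choice. DU gave the smallest difference for 68 of the genes and so set their score, Co for 38, P for 24 and Ta for 20. In DU the open genes as a whole were higher at 12 months, and relative to the all-gene median the member median lay at -0.95, as it did in Ta.

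**Figure D1:**
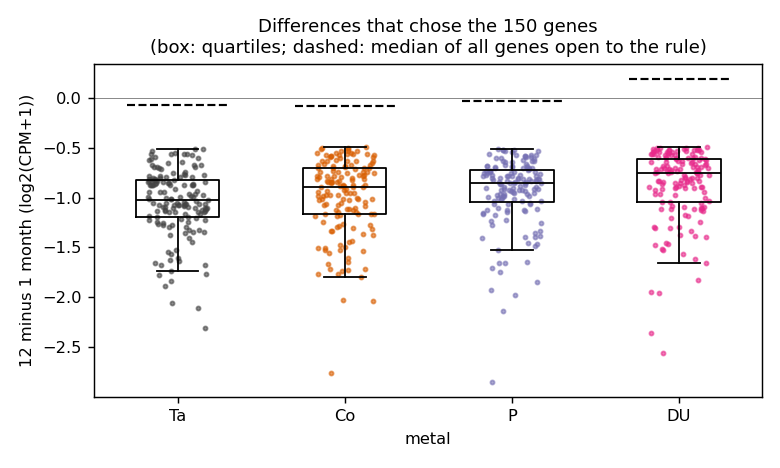
Differences between 12 and 1 months in log2(CPM + 1) for each of the 150 genes (points), by metal, with quartile boxes and whiskers to the last point within 1.5 box lengths. The dashed line is the median of all 10537 open genes. All points lie below 0 by the way the genes were chosen, and the box medians run from -1.02 in Ta to -0.76 in DU.

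The separation between libraries also differed by metal. Every library at 12 months was below every library at 1 month for 50 of the genes in Ta, 48 in P, 18 in DU and 10 in Co. These are 33.3%, 32%, 12% and 6.67% of the members. Over all open genes the shares were 2.77%, 1.12%, 0.247% and 0.285%. These libraries chose the genes, so larger shares among the members follow from the choice and are a description only. In Co a single library, replicate 8 at 12 months, held the members at a mean of 3.88 on the log2(CPM + 1) scale, while the other libraries of its group reached at most 3.01.

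The gene with the lowest score was ENSRNOG00000003897. In Ta it ran from 65.4 to 169 CPM at 1 month (median 96.0, n = 7) and from 6.39 to 36.9 CPM at 12 months (median 19.7, n = 8). The ranges did not overlap, in libraries that chose the gene. In P the median was 270.3 CPM at 1 month, 34.1 at 3 months, 64.9 at 6 months and 34.9 at 12 months. In DU it was 160.01, 33.0, 111 and 42.3 CPM. In both metals the group at 3 months was thus lower than the group at 6 months by median, although the ranges overlapped. In Co the median went from 147 CPM at 1 month to 101 at 3 months, 45.6 at 6 months and 17.9 at 12 months, with 1 library of 475 CPM in the last group. In Ni, whose libraries had no part in the choice, medians were 84.4 CPM at 1 month, 47.8 at 3 months and 65.1 at 6 months. The Ni groups at 1 and 6 months overlapped, and their difference did not pass the test (log2 fold change -0.73 ± 0.46 SE, edgeR adjusted p = 0.355).

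The next lowest score belonged to ENSRNOG00000003357. In Ta it ran from 148 to 272 CPM at 1 month (median 214) and from 27.3 to 92.8 CPM at 12 months (median 49.5). These ranges did not overlap either, again in libraries that chose the gene. The medians at 3 and 6 months lay between those at 1 and 12 months, at 88.2 and 107 CPM. In Ni the 8 libraries ran from 160.4 to 649 CPM at 1 month (median 212), from 66.6 to 232 at 3 months (median 101) and from 47.4 to 257 at 6 months (median 108). Its level in Ni fell from 1 to 6 months by 1.29 ± 0.33 SE on the log2 scale (edgeR adjusted p = 0.0363). That call was lost in 11 of 23 alternative fits, where the adjusted p reached 0.106, while the direction stayed the same in all 23. Between 3 and 6 months it passed the edgeR test in no metal. The log2 fold change was 0.05 ± 0.28 SE in Ta, 0.07 ± 0.30 SE in Ni, -0.05 ± 0.13 SE in P and 0.20 ± 0.19 SE in DU. In Co it was -0.87 ± 0.36 SE (edgeR adjusted p = 0.0749).

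**Figure D2:**
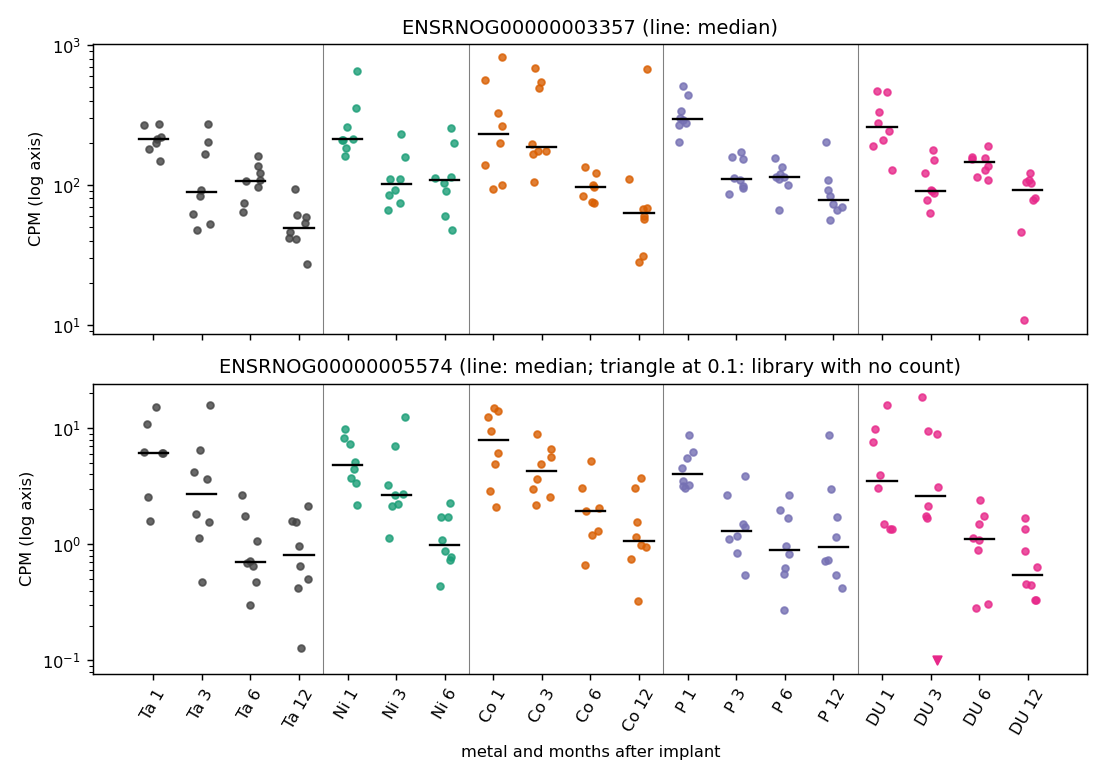
CPM on a log axis in each library of ENSRNOG00000003357 (top) and ENSRNOG00000005574 (bottom), by metal and months after implant, with the group median as a line. The upper gene is highest at 1 month in Ta, Ni, Co, P and DU by median. The lower gene has its lowest Ta and Ni medians at 6 months, and a triangle marks 1 DU library at 3 months without a count.

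The 2 genes with the highest CPM in Ta at 1 month were ENSRNOG00000006471 and ENSRNOG00000012827. The first ran from 2845 to 6759 CPM in Ta at 1 month and from 706 to 7329 at 12 months, and the groups overlapped widely. Its mean in Ni was 4446 ± 1479 CPM (SD, n = 8) in the earliest group and 4931 ± 1681 (SD, n = 8) in the latest. The other ran from 312 to 670 CPM in Ta at 1 month and from 130.3 to 341 at 12 months, overlapping by a narrow margin. Its mean in Ni was 659 ± 299.9 CPM (SD, n = 8) in the earliest group and 321 ± 64.1 (SD, n = 8) in the latest, a fall of 1.26 ± 0.31 SE on the log2 scale (edgeR adjusted p = 0.0355). This call, too, was lost in 11 of 23 alternative fits, with an adjusted p up to 0.0962.

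A level for all 150 genes together was formed within each library, as their mean log2(CPM + 1) minus the mean of the other 10387 open genes. Scaled in this way, the members are compared with the remaining genes of their own library. In Ta the 7 libraries of the first month gave -0.31 ± 0.18 (SD). The groups of 8 that followed gave -0.64 ± 0.21, then -0.998 ± 0.093 and finally -1.28 ± 0.17 (SD). In P it was -0.23 ± 0.10, -0.81 ± 0.11, -0.98 ± 0.08 and -1.15 ± 0.09 (SD, n = 8 each). In both metals the mean was lower at every later time. The P libraries at 1 month, which reached down to -0.37, lay apart from those at 3 months, which reached up to -0.67. The earliest and latest groups of both metals chose the genes, so a high start and a low end follow from the choice. The gap in P rests on such libraries at 1 month and is a description only. Only the groups between the earliest and the latest had no part in the choice.

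In Co the same value was -0.39 ± 0.21, -0.59 ± 0.22, -1.03 ± 0.13 and -1.28 ± 0.32 (SD, n = 8, 8, 7 and 8). Without the libraries that stood apart it was -0.45, -0.69, -1.05 and -1.28. In DU it was -0.31 ± 0.23, -0.86 ± 0.17, -0.88 ± 0.16 and -1.35 ± 0.41 (SD, n = 8 each), and -0.81 at 3 months and -1.30 at 12 months without those libraries. In Co and DU, too, the earliest and latest groups chose the genes, so their high start and low end follow from the choice. The groups at 3 and 6 months in DU differed by less than their spread. Not set against the other genes, the members in DU averaged 3.20 ± 0.49 at 3 months and 3.39 ± 0.30 at 6 months (SD). Without the library that stood apart the mean at 3 months was 3.36. By group means 43 members (28.7%) were lower at 6 than at 3 months in DU, against 22.6% of open genes. In Ni, not used in the choice, the value relative to the other genes was -0.45 ± 0.20, -0.65 ± 0.20 and -1.01 ± 0.20 in order of time (SD, 3 groups of 8 libraries). The Ni libraries at 6 months ran from -1.29 to -0.71 and those at 1 month from -0.71 to -0.13, so the groups met at their edges.

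**Figure D3:**
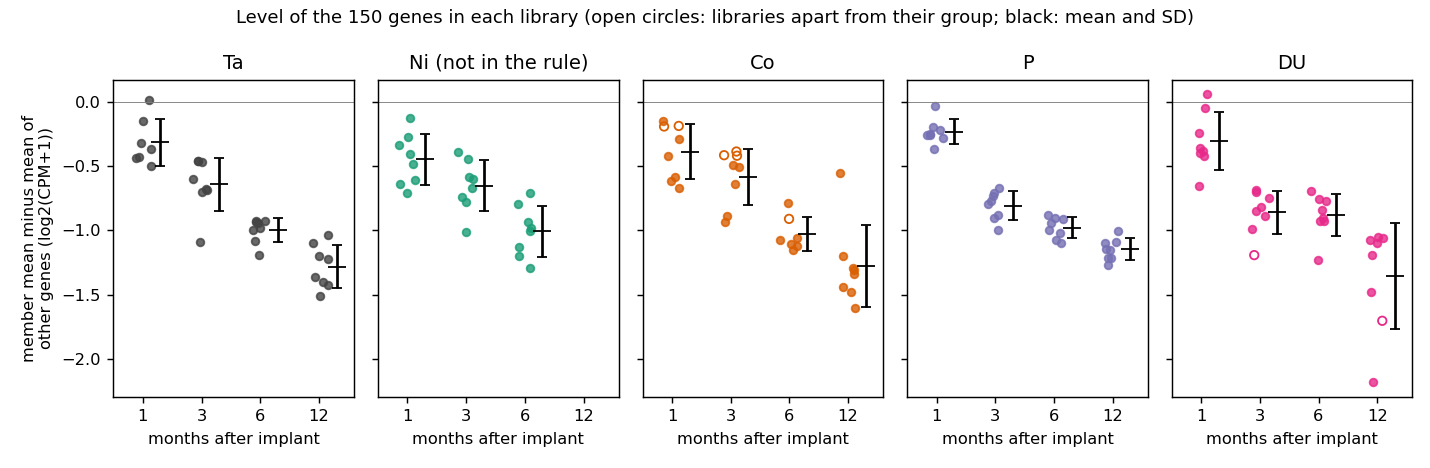
Mean log2(CPM + 1) of the 150 genes minus that of the 10387 other open genes in each library (points), by metal and months after implant, with the mean and SD in black. Open circles are the 8 libraries that stood apart from their group. Group means are lower at each later time in all 5 metals, from -0.31 to -1.28 in Ta and from -0.45 to -1.01 in Ni. In Ta, Co, P and DU the earliest and latest groups chose the genes, so their high start and low end follow from the choice. In DU the groups at 3 and 6 months, at -0.86 and -0.88, differ by less than their spread.

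The step at which the members' group means dropped most was set beside the same count over all open genes. It was the step from 3 to 6 months for 78 members in Ta, 80 in Ni and 113 in Co (52%, 53.3% and 75.3%). The shares over all open genes were 52.5%, 54.8% and 74.9%, close to those of the members. It was the step from 1 to 3 months for 102 members in P and 107 in DU (68% and 71.3%), against 40.4% and 63.5% of open genes. From 6 to 12 months it was found for 29 members in Ta, 10 in Co, 10 in P and 32 in DU (19.3%, 6.67%, 6.67% and 21.3%), against 17.8%, 6.81%, 15.5% and 14.5%. These shares are a description. In Co at 3 months the open genes as a whole were higher than at 1 month (median difference 0.18). The highest Co mean lay there for 77 members (51.3%) and for 59.6% of open genes. A lower mean at every step was seen for 57 members in Ta, 53 in Ni, 26 in Co, 79 in P and 32 in DU. Over all open genes the shares with a lower mean at every step were 5.59%, 9.46%, 1.02%, 8.35% and 1.24%, against 38%, 35.3%, 17.3%, 52.7% and 21.3% of the members. For Ta, Co, P and DU these counts include the libraries that chose the genes. Differences between metals in timing were tested only at 3 and 6 months.

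**Figure D4:**
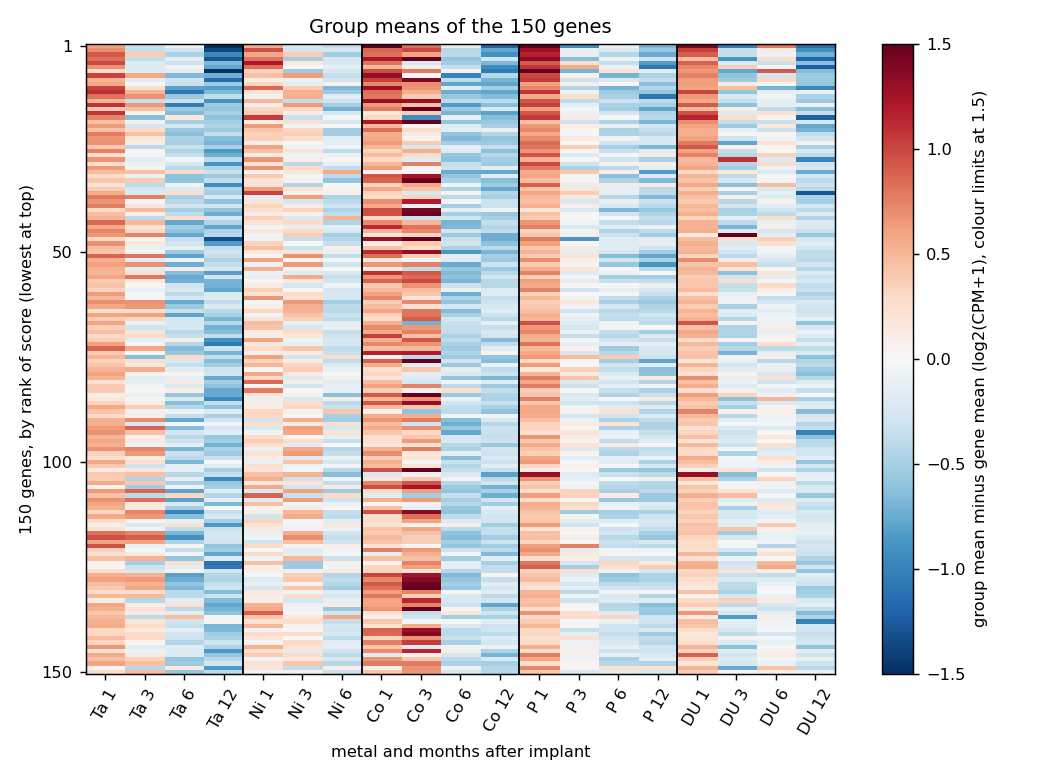
Group mean log2(CPM + 1) of each of the 150 genes (rows, lowest score at the top) minus the mean of that gene over the 19 groups, by metal and months after implant, with the colour scale limited to 1.5 either way. In Ta, Co, P and DU the columns for 1 month are mostly red and those for 12 months mostly blue, by the way the genes were chosen. Co at 3 months is red for many genes, and P and DU are already pale or blue at 3 months.

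The Ni libraries showed whether the genes also differed over time in a metal that had no part in choosing them. Time, age and cohort cannot be told apart in Ni either, and its group at 1 month shares its time point with groups that chose the genes. Between 1 and 6 months, 46 of the 150 genes fell and none rose (edgeR quasi-likelihood test, adjusted p under 0.05 over 12112 genes). Among all genes tested 2.11% were called lower and 1.63% higher, so the members' 30.7% lay well above the background. The median log2 fold change was -0.69 over the members and -0.06 over all genes, and 145 of the 150 members were below 0. For 9 members (6%) every Ni library at 6 months was below every one at 1 month, against 0.171% of the open genes. With the replicate number as a block 21 members were called, and without TMM scaling 24. Leaving out single libraries gave 30 to 50 calls, with 30 when Ni replicate 4 at 6 months was left out, and all of these calls were falls. The shares of all genes in these alternative fits are not given here, so the excess over the background is shown for the main fit only.

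The fall in Ni was not confined to the genes with the lowest scores. Of the 50 lowest by score 21 were called lower, with a median log2 fold change of -0.93. In the next 50 there were 12 calls with a median of -0.58, and in the last 50 there were 13 with a median of -0.58. The 3 sets of 50 genes ranked just outside the limit held 10, 8 and 6 calls, with medians of -0.51, -0.46 and -0.46. Across the 150 members, the mean 12 against 1 month difference of the 4 metals and the Ni log2 fold change had a Pearson r of 0.35 and a Spearman rho of 0.37. Across 10516 open genes r was 0.54 and rho 0.52. These are relations across genes, which share libraries and are not independent replicates.

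The 2 largest falls in Ni among the members called were those of ENSRNOG00000005574 and ENSRNOG00000059750. The first ran from 2.19 to 9.86 CPM in the 8 libraries at 1 month (median 4.80) and from 0.434 to 2.26 CPM in the 8 at 6 months (median 0.989). Only the lowest library at 1 month and the highest at 6 months overlapped. Its level fell by 2.30 ± 0.32 SE on the log2 scale, to a level 4.93-fold lower (edgeR adjusted p = 0.0027). The other ran from 2.24 to 8.25 CPM at 1 month (median 5.51) and from 0.841 to 2.76 CPM at 6 months (median 1.62), and fell by 1.78 ± 0.33 SE (edgeR adjusted p = 0.011). Both calls stood in all 23 alternative fits.

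Between 1 and 3 months in Ni no gene passed the edgeR test, member or not (0% of 12137 genes in either direction). At an unadjusted p under 0.05 there were 57 members (38%) and 2658 genes in all (21.9%). DESeq2 called 20 members and 3.23% of all genes, and limma-voom 1 member. The median log2 fold change was -0.29 over the members and -0.02 over all genes, with 99 members below 0.

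The groups at 3 and 6 months allowed a test in libraries of all 5 metals that had no part in the choice. Averaged over the metals, 75 of the 150 members were lower at 6 than at 3 months and 7 were higher (edgeR adjusted p under 0.05 over 13863 genes). Those are 50% and 4.67% of the members, where 27.9% of all genes were called lower and 17.7% higher. The median log2 fold change was -0.36 over the members and -0.06 over all genes, and 121 members were below 0. Leaving out the libraries that stood apart gave 81 members lower and 9 higher, for which the shares of all genes are not given here. By group means, 23 members (15.3%) were lower at 6 months in all 5 metals and 70 (46.7%) in 4 of them, against 8.04% and 29.2% of the open genes.

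**Figure D5:**
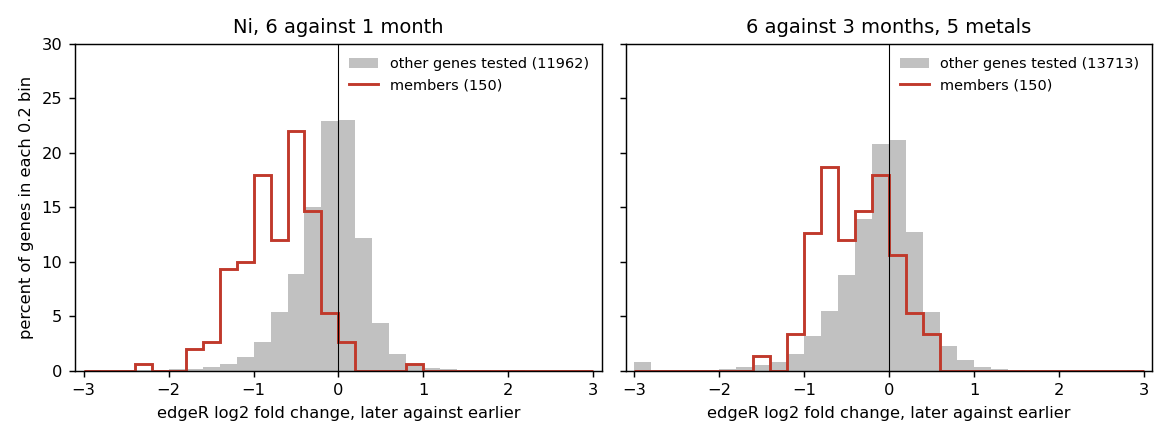
Share of genes by edgeR log2 fold change in bins of 0.2, for the 150 members (red line) and the other genes tested (grey), in Ni at 6 against 1 month and averaged over 5 metals at 6 against 3 months. The end bins hold everything beyond. The members lie to the left of the other genes in both panels, with medians of -0.69 and -0.36.

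The 2 largest falls over the 5 metals were those of ENSRNOG00000010031 and ENSRNOG00000005574. In Ta the first ran from 10.4 to 32.0 CPM at 3 months (median 25.2) and from 3.09 to 12.2 CPM at 6 months (median 7.68), with a small overlap. It fell in Ta by 1.59 ± 0.27 SE on the log2 scale (edgeR adjusted p = 0.00416) and in Ni by 1.04 ± 0.20 SE (edgeR adjusted p = 0.00397). In DU its medians were 25.5 CPM at 3 months and 12.1 at 6 months, but replicate 2 at 3 months, a library that stood apart, held 1149 CPM where the next library held 111. Averaged over the metals it fell by 1.55 ± 0.31 SE (edgeR adjusted p = 6.31e-05), and by 1.12 without the libraries that stood apart, which kept the call.

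ENSRNOG00000005574 ran in Ta from 0.477 to 15.9 CPM at 3 months (median 2.72) and from 0.299 to 2.64 CPM at 6 months (median 0.703). These ranges overlapped. In Ni the median was 2.68 CPM at 3 months and 0.989 at 6 months. Averaged over the 5 metals its level fell by 1.42 ± 0.26 SE on the log2 scale, and by 1.84 ± 0.55 SE in Ta and 1.86 ± 0.46 SE in Ni (edgeR adjusted p = 1.6e-05, 0.0271 and 0.0107).

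The 2 largest rises among the 7 members called higher were those of ENSRNOG00000002052 and ENSRNOG00000006033. The first ran in Ta from 3.69 to 24.9 CPM at 3 months (median 7.86) and from 8.07 to 33.6 CPM at 6 months (median 16.4). It rose by 0.52 ± 0.16 SE on the log2 scale over the 5 metals (edgeR adjusted p = 0.005), and in 1 of 13 alternative fits the call was lost (adjusted p = 0.0624). The other ran in Ta from 1.89 to 4.19 CPM at 3 months (median 2.44) and from 1.55 to 6.67 CPM at 6 months (median 4.31). It rose by 0.50 ± 0.14 SE over the 5 metals (edgeR adjusted p = 0.00192). At 12 months, in libraries that the choice did use, their Ta medians were 5.32 and 0.962 CPM.

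Within single metals the counts at 6 against 3 months differed. In Ni 62 members fell and 1 rose, with a background of 13.3% lower and 12.1% higher, so that 41.3% of the members were called lower. In Ta 51 fell and 4 rose, against 13% and 10.5% of all genes. In Co 42 of 149 members tested fell and 2 rose, against 17.7% and 10.7%. Without the 4 Co libraries that stood apart at these times no member was called, and 1 gene in all was. In P a single member was called, lower, where 0.00824% of all genes were called lower and 0.0329% higher. In DU none was called, where 0% were lower and 0.0325% higher. At an unadjusted p under 0.05 there were 55 members in P (36.7%) and 26 in DU (17.3%), with 13.3% and 10.5% of all genes. DESeq2 called 7 members in P and 2 in DU, with 1.06% and 0.70% of all genes. The member medians were -0.45 in Ta, -0.48 in Ni, -0.52 in Co, -0.24 in P and -0.04 in DU, with all-gene medians between -0.03 and 0.01.

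The members called in Ta and in Ni between 3 and 6 months overlapped. Both metals called 43 members lower, which is 84.3% of the 51 in Ta and 69.4% of the 62 in Ni. Over all genes tested 952 were called lower in both, 60.4% of those in Ta and 59.6% of those in Ni. Ta and Co had 23 members in common (45.1% and 54.8% of each list), against 46.7% and 33.2% over all genes. Ni and Co had 27 (43.5% and 64.3%), against 38.5% and 27.8%. Whether members overlapped more than other genes was not tested. There were 19 called lower in Ta, Ni and Co, and 81 in at least 1 of them. Of the 46 members that fell in Ni between 1 and 6 months, 20 were also called lower between 3 and 6 months in Ta or Co. The shares of all genes for these last counts are not given, so the counts describe the members only. No member was called in Co without the libraries that stood apart.

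Whether the step from 3 to 6 months differed between metals was tested in 1 model with a metal by time term. It called 56 members (37.3%), where the same test called 32.8% of all genes (edgeR adjusted p under 0.05). The members' share was close to the background. Without the libraries that stood apart it called 26 members, and 13.3% of all genes.

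Compared with Ta at 3 months, 63 members (42%) differed in some metal, against 36.3% of all genes, again close to the background. Without the libraries that stood apart 29 members did, for which the share of all genes is not given here. In DU 18 members were lower and 8 higher than in Ta, with a background of 5.1% lower and 9.83% higher. The median member difference was -0.33, against 0.03 over all genes. Without the libraries that stood apart, 19 were lower and 4 higher in DU, with 5.87% and 5.53% of all genes. In DU replicate 2, 104 members (69.3%) were below every Ta library at 3 months, as were 57.2% of all open genes. In Co 23 members were higher than in Ta and 3 lower (background 11.1% and 0.822%). Without the libraries that stood apart 1 was higher and none lower, with 1.84% and 0.0445% of all genes. In P none was called (0.0151% of all genes in each direction, 24.7% of members and 15.1% of all genes at an unadjusted p under 0.05), but without those libraries 11 were lower and 2 higher, with a background of 2.51% and 1.56%. In Ni none was called (0% in either direction, 1.33% of members and 1.81% of all genes at an unadjusted p under 0.05, and none without those libraries). The libraries that stood apart are all of Co or DU, so the P, Ni and Ta libraries were the same in both fits. Without them, 56 members and 3456 of 13486 genes in P had an unadjusted p under 0.05, and 8 members and 540 genes in Ni. Why the counts moved with the fit was not tested. These comparisons share the Ta libraries.

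At 6 months no member differed from Ta in any metal by edgeR or DESeq2, and 0.0542% of all genes did by edgeR. At an unadjusted p under 0.05 there were 19 members (12.7%) and 13.1% of all genes. The median member difference from Ta was 0.00 in Ni, 0.04 in Co, 0.03 in P and 0.22 in DU. Over all genes it was -0.02, 0.01, -0.002 and 0.02. In DU 47 members (31.3%) were below Ta, for which the share of all genes is not given here. At an unadjusted p under 0.05 there were 18.7% of members and 13.1% of all genes in DU. In Ni, Co and P the members' shares (2%, 8.67% and 4.67%) lay below those of all genes (2.37%, 10.1% and 7.64%).

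Around their group means, the members varied together a little more than other genes did. The median correlation between pairs of members over the 150 libraries was 0.28, against 0.22 between pairs of open genes, and without the libraries that stood apart it was 0.26 against 0.18. The pairs share libraries and depth, and these values are a description.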

How the data were processed

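Per the labels' protocols, a stranded kit and an input of 1000 ng of total RNA were used. The authors deposited raw counts, a whole number for each gene and library. HISAT2 2.0.5, featureCounts 1.5.0-p3 and the build Rnor_6.0 are named in the submitters' processing notes. The annotation release and strand setting are not given in the sources used here. For that reason overlapping and antisense genes may share counts. Members and tests were chosen with earlier results of these data known. Genes passing filterByExpr were scaled by TMM and tested with edgeR 4.0.16 in R 4.3.3 (robust quasi-likelihood, Benjamini-Hochberg adjustment over all genes tested, called under 0.05), after a check on simulated counts. The SE of a log2 fold change came from its F statistic. P-values set a difference between groups against the spread between libraries within groups. Each time point was a separate cohort, so they carry no estimate of the spread between cohorts. Alternatives were DESeq2 1.42.0, limma-voom 3.58.1, no filter, other scaling, a replicate block, left-out libraries and 1 model of all 150 libraries. Scaling by totals alone, and single metals against Ta without the libraries that stood apart, were added after seeing the data. Replicate numbers were not taken to pair libraries, since in no comparison did every same-numbered pair correlate over 0.1. Of 32545 identifiers 0 matched the reference tables used here, so the planned gene lists and markers were not used, and the planned rule for named genes was shortened to those with the 2 lowest scores, the 2 highest CPM in Ta at 1 month and the 2 largest called changes in each direction of the 2 main tests.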

Additional observations from a re-analysis of the deposited data

Results flagged for a closer look

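Single libraries stood far from the others of their group, with a gap to the nearest other library that was a large part of the range of the group. Such gaps were looked for in 101 groups of values (19 of the mean of the 150 genes, 19 of that mean minus the other genes, and 63 of single genes), 17 were found, and chance gives about 1 in 20. On the log2(CPM + 1) scale, the 150 genes averaged 3.88 in Co replicate 8 at 12 months, where the nearest other library had 3.01. They averaged 2.57 in Ta replicate 4 at 12 months (nearest 2.82), 2.09 in DU replicate 2 at 3 months (nearest 2.97) and 2.67 in DU replicate 8 at 6 months (nearest 3.38). Relative to the other genes the value was -0.55 in Co replicate 8 at 12 months (nearest -1.20), -1.09 in Ta replicate 1 at 3 months (nearest -0.70) and -1.23 in DU replicate 8 at 6 months (nearest -0.92).

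Co replicate 8 at 12 months was also high for both genes of lowest score, with 475 CPM of ENSRNOG00000003897 (nearest 48.1) and 668 CPM of ENSRNOG00000003357 (nearest 110.1). Ni replicate 7 at 1 month held 306 CPM of ENSRNOG00000003897 (nearest 155) and 649 CPM of ENSRNOG00000003357 (nearest 354). ENSRNOG00000003897 reached 274 CPM in Ta replicate 5 at 6 months (nearest 103) and 1070.1 CPM in P replicate 7 at 1 month (nearest 412). ENSRNOG00000003357 reached 202 CPM in P replicate 4 at 12 months (nearest 108). ENSRNOG00000005574 was at 15.9 CPM in Ta replicate 2 at 3 months (nearest 6.45), and ENSRNOG00000006033 at 4.19 CPM in Ta replicate 6 at 3 months (nearest 2.86). ENSRNOG00000010031 was at 1149 CPM in DU replicate 2 at 3 months (nearest 111).

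The change from 3 to 6 months differed between metals for 56 of the 150 genes by the metal by time term (edgeR adjusted p under 0.05), a share close to that of all genes tested.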

How the results depend on the processing

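Of 92 alternative counts of members called, 67 lay within 1.5 times the reported count and 25 did not. The counts below are given without the shares of all genes called in the same fits. They therefore do not show whether the members changed more than other genes in those fits. For Ni at 6 against 1 month (46 called), a replicate block gave 21, totals without TMM factors 24, and leaving out single libraries 30 to 50, with Ni replicate 4 at 6 months behind the 30. For Ni at 3 against 1 month (0 called), DESeq2 gave 20, voom 1, the block 3, totals 1 and 1 model of all libraries 16. For Co at 6 against 3 months (44), the block gave 20, leaving out the libraries that stood apart 0 and totals 88. For P (1), no filter gave 2, DESeq2 7, and voom, the block, totals and 1 model of all libraries 0 each. For DU (0), DESeq2 gave 2, voom 21 (6 lower, 15 higher), leaving out libraries that stood apart 3 and 1 model of all libraries 11. The metal by time count (56) was 95 with voom, 26 without the libraries that stood apart and 88 by totals. The counts against Ta were 29 without those libraries at 3 months (63) and 2 in 1 model of all libraries at 6 months (0). The causes were not tested. The block changed no other count by over 1.5 times, and in no comparison was the correlation of deviations over 0.1 in every same-numbered pair. Co against Ta at 3 months came nearest, with 7 of 8 pairs over 0.1 (0.096 to 0.51).

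Changes that did not pass the test turned sign in some fits. At 6 against 3 months over the metals, ENSRNOG00000003357 (-0.11) gave 0.023 with voom and 0.078 without Co. ENSRNOG00000012827 (0.16) gave -0.21 with voom, -0.068 without the libraries that stood apart, -0.0036 by totals and -0.032 without Co. In Ni at 6 against 1 month, ENSRNOG00000006033 (0.03) gave -0.065 with voom, -0.21 with the block and -0.18 to 0.18 without single libraries, and ENSRNOG00000006471 (0.01) gave -0.10 to 0.11 without single libraries.

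Choosing 150 genes in another way kept 112 with TMM-scaled CPM, 125 with log2(CPM + 0.1), 116 without the libraries that stood apart and 110 with group medians. Genes near 2 CPM rest on few counts per library, which limits what could be detected for them.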
